A study of Mus musculus with 7 samples.

Results

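The genes described here are 9 subunits and receptors for acetylcholine, out of 16144 genes tested in the neocortex of CKO and WT mice. They are the nicotinic subunit genes Chrna3, Chrna4, Chrna5, Chrna7 and Chrnb2 and the muscarinic receptor genes Chrm1, Chrm2, Chrm3 and Chrm4. The set was chosen by its lead gene: the measured CKO and WT signals of Chrna7 selected it. Members were taken by gene symbol from probe sets that name exactly 1 gene, with the brightest probe set for each gene. Each of the 9 has 1 such probe set, so no choice between probe sets was needed. Chrna7 was put at the head of the set because its signal was lower and tightly spaced in CKO, so its difference between the groups is given as a description with no test.

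Whole neocortex of strain C57BL/6 was profiled on 7 one-colour Affymetrix arrays, 1 per sample. The 4 CKO samples carry a genotype that names COUP-TFI together with Nex-Cre, and the 3 WT samples are wild type. COUP-TFI is the nuclear receptor encoded by Nr2f1, and Nex-Cre acts from the Neurod6 locus in postmitotic glutamatergic neurons, so other cells of the tissue are not its target. The sources used here give no age, sex or pooling of animals, and nothing in the labels says that each array is a separate animal, so p-values reflect no more than the variation among these arrays, some of which may be technical. Values are RMA log2 signals and differences are CKO minus WT. In bulk tissue, fewer cells of a type and less RNA per cell cannot be told apart.

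Acetylcholine reaches the neocortex mainly from neurons of the basal forebrain and acts through receptors of 2 families, which the files cover with 5 and 4 genes of this set. Nicotinic receptors are ion channels of 5 subunits that open when acetylcholine binds. The alpha7 subunit forms channels by itself that pass calcium, alpha4 and beta2 together form the high-affinity channel of the brain, and alpha5 joins alpha4 and beta2 as an accessory subunit, in the neocortex chiefly in layer 6 neurons. Muscarinic receptors act through G proteins: the M1 and M3 receptors couple to Gq and phospholipase C, and the M2 and M4 receptors couple to Gi and lower cyclic AMP.

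Nr2f1 (probe set 10410766) differed by -0.36 and Neurod6 (probe set 10544936) by -0.20, each with all CKO arrays below all WT arrays and with limma adjusted p of 0.435 and 0.711; whether the Nr2f1 probe set lies in the deleted part is not known here. Of 7 markers of neocortical glutamatergic neurons 5 were tested, with 2 positive and 3 negative differences and a median of -0.0022. Neurod6 is among these 5 and is also the driver locus, and these roles cannot be told apart in its value. Besides Neurod6, the transcription factor gene Tbr1 differed by 0.14 with all CKO arrays above all WT arrays, Slc17a7, a vesicular glutamate transporter, by -0.12, Emx1 by 0.069 and Neurod2 by -0.0022. Neurod2, a transcription factor of these neurons, had a log2 signal between 13.06 and 13.21 on every array. Of all genes tested, 4 (0.0248%) passed an adjusted p of 0.05 in limma. Without overlap between the groups, 2.99% of all genes lay lower in CKO and 5.39% lay higher.

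Chrna7 (probe set 10564272), the alpha7 subunit, had log2 signals of 10.08, 10.10, 10.15 and 10.14 on arrays CKO 1, CKO 4, CKO 34 and CKO 43, against 10.35, 10.45 and 10.44 on WT 6, WT 27 and WT 38. All 4 CKO arrays lay below all 3 WT arrays, and the gap between the groups was 0.202. The mean was 10.11 ± 0.033 over the CKO arrays (SD, n = 4) and 10.41 ± 0.058 over the WT arrays (SD, n = 3), a difference of -0.30, or 0.812 of the WT signal. Over all genes 2.99% had every CKO array below every WT array; as this contrast chose Chrna7, nothing is read from that share. No label names a batch, but the array identifiers in the titles fall into 3 groups by 1 block of their digits; this is a reading of unlabelled digits. Identifier group 1 holds CKO 1 and CKO 4, group 2 holds CKO 34, CKO 43, WT 27 and WT 38, and group 3 holds WT 6, which shares its later digits with group 2. The difference of Chrna7 was -0.31 within group 2 and -0.27 within groups 2 and 3 joined. Leaving out any 1 array gave between -0.33 and -0.28. That these values lie close together follows largely from the tight spacing that chose Chrna7.

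The other nicotinic subunits did not share this spacing, and none of the 8 members other than Chrna7 passed an adjusted p of 0.05 in limma, where 0.0248% of all genes did (0.0124% higher and 0.0124% lower in CKO). One of the 8, Chrna5, had an unadjusted p under 0.05, where 6.79% of all genes did. The median difference of these 8 was -0.047, with 4 positive and 4 negative. All genes tested had a median of 0.014, and 58.9% were positive. Centred on each gene's mean over the 7 arrays, the mean signal of these 8 was 0.136 on CKO 1. It was between -0.075 and -0.066 on the other CKO arrays and between 0.016 and 0.033 on the WT arrays. The mean of all genes on CKO 1 was 0.031. The cause of the higher signal on CKO 1 was not tested. The set holds 5 genes for channel subunits and 4 for G protein-coupled receptors, and differences of both signs were found in each family.

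**Figure D1:**
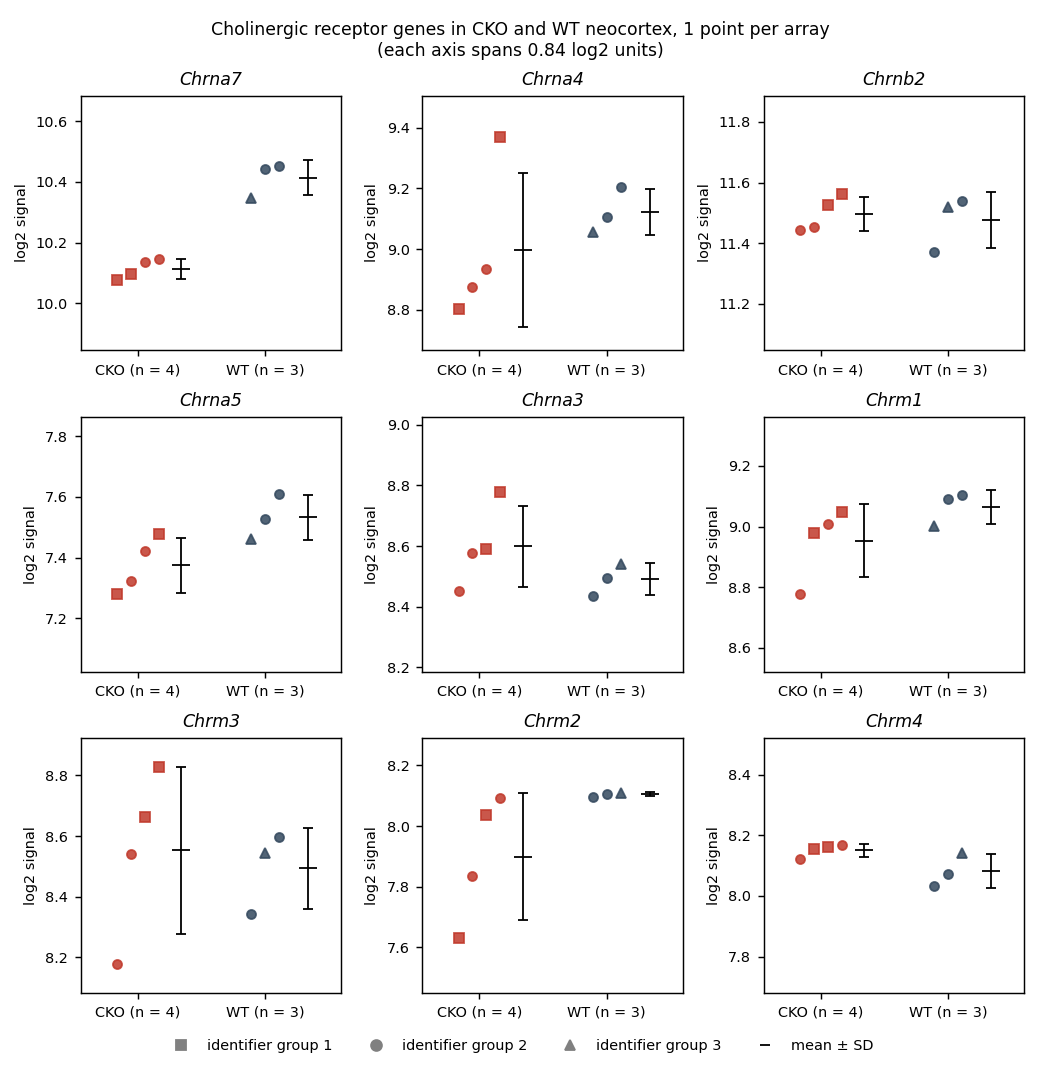
Log2 signal of each of the 9 receptor genes on every array, CKO on the left and WT on the right of each panel, with the mean ± SD beside the points and the identifier group as the marker shape. Every axis spans the same number of log2 units. For Chrna7 the 4 CKO points lie between 10.08 and 10.15 and the 3 WT points between 10.35 and 10.45, while Chrna4, Chrm2 and Chrm3 show a wide spread among CKO points.

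Chrna5 (probe set 10585484), the accessory alpha5 subunit, had 7.48, 7.28, 7.42 and 7.32 on CKO 1, CKO 4, CKO 34 and CKO 43, against 7.46, 7.53 and 7.61 on WT 6, WT 27 and WT 38. Chrna5 was the dimmest member, with a mean signal at percentile 12.6 of the genes tested. The groups overlapped by 1 array on each side, as CKO 1 lay just above WT 6. The difference was -0.16 (SE 0.060, 95% interval -0.29 to -0.02), with a limma adjusted p of 0.723.

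Chrna4 (probe set 10490559), the alpha4 subunit, had 9.37 on CKO 1 and 8.80, 8.88 and 8.94 on CKO 4, CKO 34 and CKO 43, against 9.06, 9.11 and 9.21 on WT 6, WT 27 and WT 38. CKO 1 was the highest of the 7 arrays and the other 3 CKO arrays were the lowest. The mean was 8.996 ± 0.254 over the CKO arrays (SD, n = 4) and 9.12 ± 0.076 over the WT arrays (SD, n = 3), and the difference was -0.13 (SE 0.125, limma adjusted p 0.823). It was -0.25 without CKO 1 and -0.064 without CKO 4, so its size rests on which of these arrays is kept.

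Chrnb2 (probe set 10499643), the beta2 partner of alpha4, had 11.56, 11.53, 11.44 and 11.45 on CKO 1, CKO 4, CKO 34 and CKO 43, against 11.52, 11.54 and 11.37 on WT 6, WT 27 and WT 38. The groups overlapped, with CKO 1 above every WT array and WT 38 below every CKO array. The difference was 0.019 (SE 0.054), and its 95% interval of -0.11 to 0.14 holds changes in either direction. The alpha4 and beta2 genes, whose products assemble together, therefore had differences of -0.13 and 0.019; the difference between these was not tested.

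Chrna3 (probe set 10593756), the alpha3 subunit of ganglionic and habenular receptors, had 8.78, 8.59, 8.45 and 8.58 on CKO 1, CKO 4, CKO 34 and CKO 43, against 8.54, 8.44 and 8.50 on WT 6, WT 27 and WT 38. CKO 1, CKO 4 and CKO 43 lay above every WT array, while CKO 34 fell among the WT arrays. The difference was 0.11 (SE 0.073, limma adjusted p 0.753). It was 0.049 without CKO 1, 0.049 within identifier group 2 and 0.024 within groups 2 and 3 joined. Chrna3 lies beside Chrna5 and Chrnb4 on chromosome 9, in the order Chrna5, Chrna3, Chrnb4 in the RefSeq gene table. Chrnb4, the beta4 subunit that pairs with alpha3 and is no member, had a mean of 8.55 ± 0.143 over the CKO arrays (SD, n = 4) and 8.39 ± 0.106 over the WT arrays (SD, n = 3). Its difference was 0.16 (SE 0.083, limma adjusted p 0.735), and 0.096 without CKO 4. The 3 adjacent genes thus had differences of -0.16, 0.11 and 0.16, none past the threshold.

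Among the muscarinic receptors, Chrm2 (probe set 10537298), the Gi-coupled M2 receptor, had 8.04, 7.63, 8.09 and 7.84 on CKO 1, CKO 4, CKO 34 and CKO 43, against 8.11, 8.11 and 8.10 on WT 6, WT 27 and WT 38. Every CKO array lay below every WT array, but the gap between CKO 34 and WT 38 was 0.0033. The CKO arrays spread widely, with an SD of 0.211 (n = 4) against 0.0067 (n = 3) in WT. The difference was -0.21 (SE 0.102, 95% interval -0.44 to 0.03, limma adjusted p 0.727), and -0.12 without CKO 4. Chrm2 was the 1 member of the 8 whose groups did not overlap, where 2.99% of all genes lay lower in CKO without overlap, 5.39% lay higher without overlap and 8.38% did not overlap in either direction.

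Chrm1 (probe set 10461143), the Gq-coupled M1 receptor that is abundant in the forebrain, had 9.05, 8.98, 9.01 and 8.78 on CKO 1, CKO 4, CKO 34 and CKO 43, against 9.001, 9.09 and 9.11 on WT 6, WT 27 and WT 38. CKO 43 was the lowest array, and the groups overlapped. The difference was -0.11 (SE 0.068, limma adjusted p 0.744). It was -0.053 without CKO 43 and -0.20 within identifier group 2.

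Chrm3 (probe set 10407591), the Gq-coupled M3 receptor, had 8.83, 8.66, 8.18 and 8.54 on CKO 1, CKO 4, CKO 34 and CKO 43, against 8.54, 8.60 and 8.34 on WT 6, WT 27 and WT 38. It had the widest range over the 7 arrays of any member, 0.650, and both its highest and its lowest array were CKO. The difference was 0.059 (SE 0.140, 95% interval -0.26 to 0.38), and it was -0.11 within identifier group 2.

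Chrm4 (probe set 10474002), the Gi-coupled M4 receptor of striatal projection neurons and some cortical cells, had 8.16, 8.15, 8.17 and 8.12 on CKO 1, CKO 4, CKO 34 and CKO 43, against 8.14, 8.03 and 8.07 on WT 6, WT 27 and WT 38. The groups overlapped, since WT 6 lay above CKO 43, and the range over the 7 arrays was the narrowest of the 9, 0.137. The difference was 0.069 (SE 0.040, limma adjusted p 0.740), and 0.044 without WT 27. Of 15 striatal markers 12 were tested and all 12 had a positive difference, where 58.9% of all genes did. Their mean centred signal ran from -0.0087 to 0.298 on CKO arrays and from -0.28 to -0.12 on WT arrays. The part of striatal tissue in the value of Chrm4 was not tested.

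**Figure D2:**
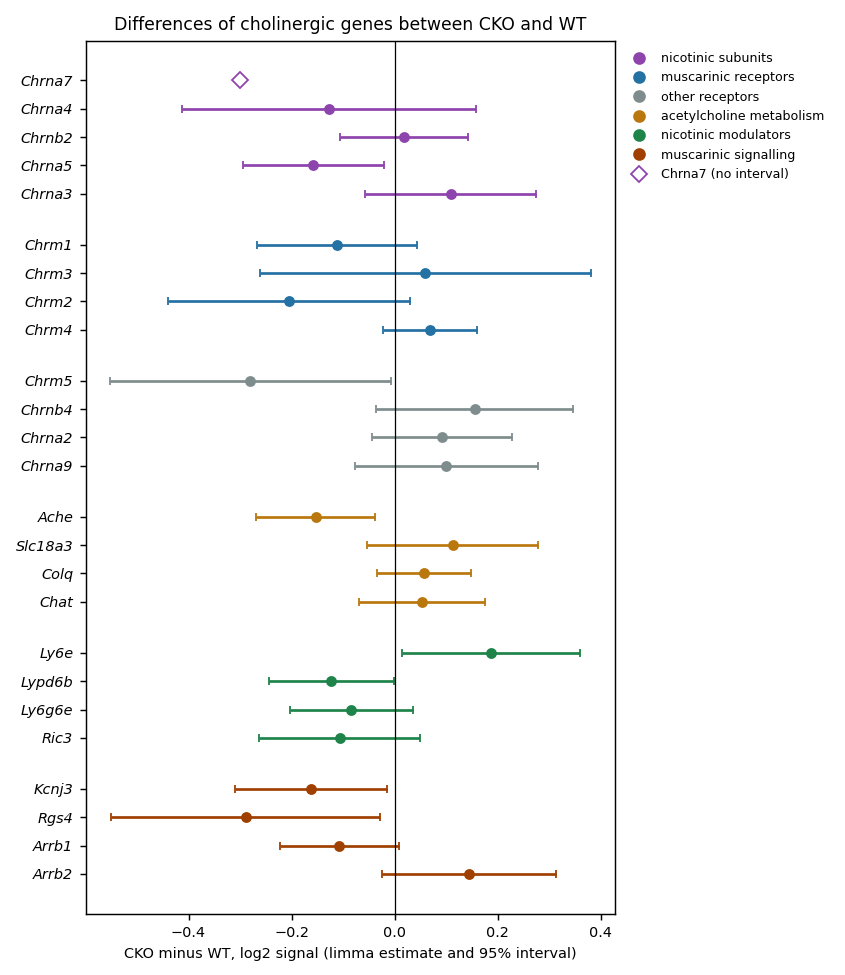
CKO minus WT difference in log2 signal (horizontal axis) of the 9 receptor genes and of 16 genes named from 4 lists of other cholinergic genes, with limma estimates as points and unadjusted 95% intervals as bars. Chrna7 is drawn without an interval because its difference chose it. Chrna7 lies at -0.30, the lowest value among the 9, and intervals that miss 0 belong to genes whose adjusted p was at least 0.711.

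The promoter of Chrna7 is shown beside those of the 2 members that hold AGGTCA, because the receptor named in the CKO genotype binds repeats of these letters. Both strands of the 250 bases before each start were searched in the RefSeq promoter table of build GRCm38.p6, for AGGTCA and for its inner 5 letters GGTCA. Capitals mark the matches, on either strand; every AGGTCA also holds a GGTCA. The stretches are chr7:63212527-63212776 on the minus strand for Chrna7, chr3:89764633-89764882 on the minus strand for Chrnb2 and chr9:54981238-54981487 on the plus strand for the second of 2 starts of Chrna5. Each is written 5′ to 3′ as the table gives it:
Chrna7: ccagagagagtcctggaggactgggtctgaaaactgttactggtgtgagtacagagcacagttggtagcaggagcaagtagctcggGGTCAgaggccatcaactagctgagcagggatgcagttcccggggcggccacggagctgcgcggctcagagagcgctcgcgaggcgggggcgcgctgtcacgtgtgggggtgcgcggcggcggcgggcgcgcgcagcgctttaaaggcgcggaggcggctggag
Chrnb2: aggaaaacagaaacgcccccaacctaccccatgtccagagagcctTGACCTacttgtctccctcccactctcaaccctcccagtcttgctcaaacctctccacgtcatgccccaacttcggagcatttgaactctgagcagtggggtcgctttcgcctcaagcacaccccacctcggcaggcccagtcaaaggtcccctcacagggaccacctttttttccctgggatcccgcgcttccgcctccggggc
Chrna5: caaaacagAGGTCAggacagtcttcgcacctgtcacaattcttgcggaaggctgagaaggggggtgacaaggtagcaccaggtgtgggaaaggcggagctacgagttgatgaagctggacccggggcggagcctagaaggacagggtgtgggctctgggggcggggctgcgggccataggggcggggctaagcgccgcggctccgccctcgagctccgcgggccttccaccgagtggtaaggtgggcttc

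Of the 9 members 8 had an entry, with 9 starts in all; Chrm1 had none. AGGTCA stood in 2 of these 9 starts, and in 14.0% of the 32851 promoters in the table. GGTCA stood in 5 of the 9 starts and in 35.2% of all promoters, and the match in Chrna7 begins 164 bases before its start. The Chrna7 stretch is rich in G and C, at 67.2%, against a median of 52.4% over all promoters, and holds 25 CpG pairs against a median of 6. These matches describe letters and say nothing of binding.

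The 4 nearest tested genes beside Chrna7 on chromosome 7 had overlapping groups and differences near 0. On one side, the nearest tested genes were Peg12 and Mkrn3, both imprinted genes, with differences of 0.016 (SE 0.070) and 0.062 (SE 0.097). On the other side were Otud7a, a deubiquitinase, with -0.032 (SE 0.042), and Klf13, a Krüppel-like transcription factor, with 0.032 (SE 0.036). The limma adjusted p was between 0.837 and 0.970 for these 4 genes.

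The genes whose values were most like those of Chrna7 were Mpp6, Samd12, Elfn2, Clmp, Lrrtm3 and Adamts3. Likeness was the root mean square distance between centred log2 values over the 7 arrays; it ran from 0.039 for Mpp6 to 0.061 for Adamts3, against a median of 0.176 over 16143 genes. Mpp6 is a membrane-associated scaffold, and Elfn2, Clmp and Lrrtm3 are transmembrane proteins of synapses or cell adhesion. Samd12 holds a sterile alpha motif, and Adamts3 is a secreted protease. Mpp6 had 10.71, 10.70, 10.73 and 10.78 on CKO 1, CKO 4, CKO 34 and CKO 43, against 10.87, 11.04 and 11.01 on WT 6, WT 27 and WT 38. Like Chrna7, it was lowest among WT arrays on WT 6. The 6 differences ran from -0.32 for Lrrtm3 to -0.21 for Clmp and carry no test, since likeness to Chrna7 chose these genes. They come from the brightest probe set of each gene, at -0.24 for Mpp6 and -0.22 for Adamts3. With the mean of a gene's probe sets, Mpp6 was at -0.29 and Adamts3 at -0.20. Likeness was not recomputed with that mean. Among the members, the nearest to Chrna7 was Chrna5, at a distance of 0.101 and rank 123, and the farthest was Chrm3, at 0.281. As Chrna7 was chosen for its lower CKO signal, these distances partly restate each member's own difference.

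**Figure D3:**
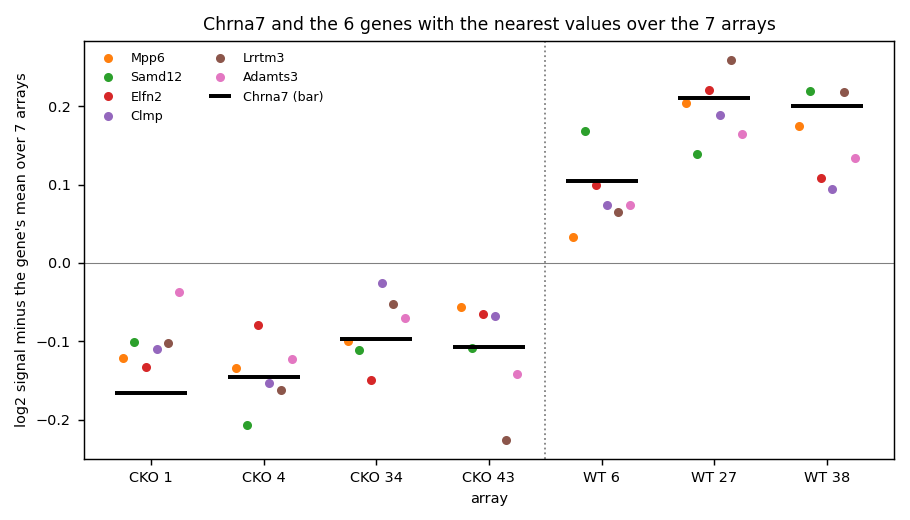
Log2 signal minus each gene's own mean over the 7 arrays (vertical axis) on every array, for Chrna7 (black bars) and the 6 genes nearest to it (points). On all 4 CKO arrays every one of the 7 genes lies below its own mean, and on all 3 WT arrays above it; this follows from choosing them by likeness to Chrna7.

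Other cholinergic genes gave no call. Over 4 lists, 48 of 55 genes were tested and 0 passed an adjusted p of 0.05 in limma, while 6 had an unadjusted p under 0.05, 1 higher and 5 lower in CKO. The background is 6.79% of all genes in either direction, 4.17% higher and 2.61% lower. The lowest adjusted p among the 48 was 0.711.

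Of the 12 receptor genes that are no members, 9 were tested, and Chrna6, Chrna10 and Chrnd were below the filter on dim probe sets. Of the 9, 8 had a positive difference, where 58.9% of all genes did, and the median was 0.084; within identifier group 2 it was -0.012. Chrm5, the Gq-coupled M5 receptor, had 7.55, 7.54, 7.23 and 7.46 on CKO 1, CKO 4, CKO 34 and CKO 43, against 7.53, 8.002 and 7.64 on WT 6, WT 27 and WT 38. Its groups overlapped because of CKO 1, CKO 4 and WT 6, and its difference was -0.28 (SE 0.119, limma adjusted p 0.726). It was -0.14 without WT 27. The subunit genes Chrna2 and Chrna9 had differences of 0.092 (SE 0.060) and 0.10 (SE 0.077). Chrna2 was at 0.039 without WT 6, and Chrna9 at 0.042 without CKO 4.

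Genes that make, store and break down acetylcholine were measured for 8 of 9, with a median of 0.043 and 6 positive. Ache, the acetylcholinesterase that breaks acetylcholine down at synapses, had 8.11, 8.03, 7.94 and 8.01 on CKO 1, CKO 4, CKO 34 and CKO 43, against 8.18, 8.12 and 8.23 on WT 6, WT 27 and WT 38. All CKO arrays lay below all WT arrays, where 2.99% of all genes lay lower in CKO without overlap. The difference of Ache was -0.15 (SE 0.050, limma adjusted p 0.711). Chat, which makes acetylcholine, had a mean of 6.96 ± 0.078 over the CKO arrays (SD, n = 4) and 6.91 ± 0.060 over the WT arrays (SD, n = 3), just above the filter at 6.84. Slc18a3, its vesicular transporter, and Colq, the collagen tail of acetylcholinesterase, had differences of 0.11 (SE 0.072) and 0.057 (SE 0.040). Without WT 27 they were 0.038 and 0.033, and Slc18a3 was at 0.176 without WT 38.

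Chaperones and toxin-like modulators of nicotinic receptors were tested for 14 of 14, with a median of 0.030 and 8 positive. Ric3, a chaperone of alpha7 receptors, had 8.56, 8.38, 8.58 and 8.56 on CKO 1, CKO 4, CKO 34 and CKO 43, against 8.63, 8.74 and 8.52 on WT 6, WT 27 and WT 38. CKO 4 was low, WT 38 fell among the CKO arrays, and the difference was -0.11 (SE 0.068, limma adjusted p 0.752). It was -0.060 without CKO 4, -0.052 without WT 27 and -0.16 without WT 38. The Ly6-family genes Ly6e, Lypd6b and Ly6g6e had differences of 0.19 (SE 0.075), -0.12 (SE 0.053) and -0.084 (SE 0.052). Ly6e was at 0.101 without WT 6 and at 0.084 within identifier group 2.

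Signal transducers of muscarinic receptors were tested for 17 of 20, with a median of -0.0034, 8 positive and 9 negative. Rgs4, which speeds up the turning off of Gi and Gq proteins, had a mean of 8.87 ± 0.183 over the CKO arrays (SD, n = 4) and 9.16 ± 0.185 over the WT arrays (SD, n = 3), a difference of -0.29 (SE 0.114). Kcnj3, a subunit of the potassium channel opened by Gi-coupled receptors, differed by -0.16 (SE 0.064). The limma adjusted p of both was 0.723, and Rgs4 was at -0.18 without WT 27. The arrestin genes Arrb1 and Arrb2, which switch off receptors, had differences of opposite sign, -0.11 (SE 0.050) and 0.14 (SE 0.074). Arrb2 was at 0.058 without WT 6, 0.229 without WT 27 and 0.047 within identifier group 2.

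Some cell type marker lists differed in mean signal between the groups, though no gene of the 5 lists described here passed an adjusted p of 0.05 in limma. Their part in the values above was not tested. Of 11 marker lists, 4 had a mean centred signal higher on every CKO array than on any WT array (striatal, hippocampal, dividing cell and astrocyte markers) and 1 a lower one (layer 5). The other 6 lists overlapped, but single genes in them passed the adjustment. Syt6 of the layer 6 list differed by 0.67 (limma adjusted p 0.0022). That list held 6 positive and 3 negative differences, from -0.47 to 0.67, with a median of 0.045. Kcnab1 of the subplate list differed by -0.58 (limma adjusted p 0.035). The subplate list held 3 positive and 5 negative differences, from -0.58 to 0.40, with a median of -0.010. Layer 5 markers, tested for 9 of 10, had means from -0.20 to 0.028 on CKO arrays and from 0.040 to 0.113 on WT arrays, with 5 positive and 4 negative differences and a median of 0.036. The neurofilament genes Nefl and Nefm had the lowest differences of that list, -0.98 (SE 0.274) and -0.77 (SE 0.130). By contrast Bcl11b, Igfbp4 and Pcp4 had differences of 0.15, 0.15 and 0.094, with all CKO arrays above all WT arrays. Of the 9 layer 5 genes tested, 3 lay higher and 2 lower without overlap, where 5.39% and 2.99% of all genes did. Markers of dividing cells and progenitors were positive for 8 of 8 tested, from -0.0080 to 0.131 on CKO arrays against -0.14 to -0.036 on WT arrays. Astrocyte markers were positive for 7 of 7, from 0.016 to 0.099 on CKO arrays against -0.15 to -0.015 on WT arrays. Hippocampal markers were positive for 5 of 7, from -0.0021 to 0.060 on CKO arrays against -0.055 to -0.0053 on WT arrays. The closest CKO and WT arrays of the hippocampal list, at -0.0021 and -0.0053, were nearly level. Of those 7 genes, 1 had an unadjusted limma p under 0.05, where 6.79% of all genes did. A positive difference was found for 58.9% of all genes tested.

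**Figure D4:**
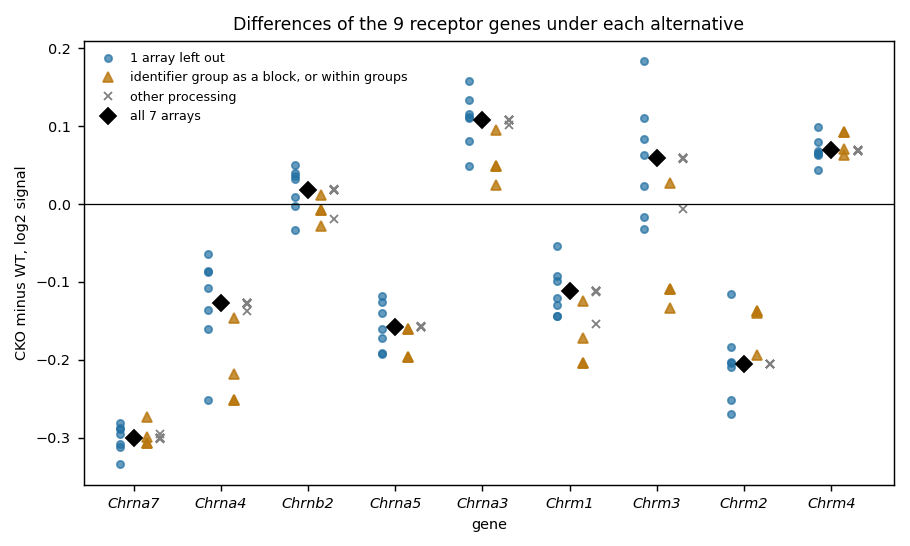
CKO minus WT difference in log2 signal (vertical axis) of each of the 9 receptor genes with all 7 arrays (black diamonds), with 1 array left out (blue circles), with identifier group as a block or within identifier groups (triangles) and with other processing (crosses). Chrna7 stays between -0.33 and -0.27, which follows largely from the tight spacing that chose it. Chrnb2 and Chrm3 have values on both sides of 0.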

How the data were processed

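Log2 signals of 7 arrays (4 CKO, 3 WT) were taken as deposited; the submitters' processing notes name RMA and Affymetrix Expression Console as what the authors used. The sources used here give neither its version nor a genome build. RMA gives every array nearly the same distribution (medians 8.232 to 8.234), which hides any change shared by most genes. All 7 samples had 0.2 µg of RNA with an integrity number of 10, per the labels. Identifier groups were read from unlabelled digits of the array identifiers and may not be batches: group 1 held CKO 1 and CKO 4, group 3 held WT 6, and group 2 held the others.

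Of 35468 probe sets, 21786 named 1 gene in the platform annotation, 1621 several and 12061 none; 21695 were matched to RefSeq by Entrez identifier. Probe sets below the 25th percentile of mean signal (6.84) were left out, and the brightest probe set stood for a gene. All 9 members passed; 6 passed a filter at the 50th percentile.

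CKO and WT were compared with limma 3.58.1 in R 4.3.3 (lmFit, eBayes, no covariate, 3.28 prior and 5 residual degrees of freedom) over 16144 genes, with Benjamini-Hochberg adjustment at 0.05. Errors are limma standard errors. The number of arrays limits the precision. The fit was tested on simulated data. Figures were drawn with matplotlib 3.10.9. Members, lists and rules were chosen with earlier results of these data known. Named genes were the members, the target and driver genes, the members of each list with an unadjusted p under 0.05 or at least the 4 smallest, Chrnb4, the 2 nearest tested genes on each side of Chrna7 and the 6 nearest in values. The markers of neocortex and layer 5, Syt6, Kcnab1 and Ngfr were named after their values were seen. Alternatives were the filter, the normalization, the mean of a gene's probe sets, identifier group, array weights, eBayes with trend and robust, a threshold of 0.1 and leaving out each array. Joining identifier groups 2 and 3 was added after seeing the data.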

Additional observations from a re-analysis of the deposited data

Results flagged for a closer look

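Among 37 named genes, the 4 CKO arrays held 1 array far from the others for 2 genes, where chance gives about 1 in 20; the 3 WT arrays are too few for this comparison. Ric3, the alpha7 chaperone, was at 8.38 on CKO 4, against 8.56 to 8.58 on the other CKO arrays. Samd12, one of the genes nearest to Chrna7, was at 9.48 on CKO 4, against 9.58 to 9.59 on the other CKO arrays.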

How the results depend on the processing

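No paired analysis was possible because the numbers in the labels are shared by no CKO and WT samples. Under 19 alternatives, 0 of the 8 members other than Chrna7 and 0 of the other cholinergic genes passed the adjustment in limma. Between 0 and 3 of the 8 members had an unadjusted limma p under 0.05. The count of 3 was reached without CKO 1 and again without CKO 34, where 798 and 1118 of all 16144 genes had such a p. Over the alternatives that count of all genes ran from 429 to 1761. Of the 30 named genes with a test, 22 kept the sign of their difference throughout, and 501 of 528 recomputed values did. The filter and eBayes with trend and robust cannot change a gene's difference. Nor can the mean of probe sets for a gene with 1 probe set. These counts therefore include signs that were kept by construction. The count of all genes past 0.05, 4 as reported, was 1 with array weights, 0 with identifier group as a fixed block, 0 within group 2 and 2 within groups 2 and 3 joined (an alternative chosen after seeing the data), and ran from 1 to 6 when 1 array was left out.

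All reversals were of small values past no threshold. With identifier group as a fixed block or within group 2, which give each gene the same value, Chrnb2 was at -0.0076, Chrm3 at -0.1086, Chrnb4 at -0.0020, Chrna2 at -0.012, Chat at -0.0083 and Peg12 at -0.075. The median of other receptors was then -0.012, of modulators -0.039 and of muscarinic transducers 0.0076. Within groups 2 and 3 joined, Chrnb2 was at -0.029, Chrm3 at -0.133, Chat at -0.0023, Peg12 at -0.080, and the medians were -0.0048 for acetylcholine metabolism, -0.039 for modulators and 0.017 for transducers. With identifier group as a random block Peg12 was at -0.00048 and the transducers at 0.0039. With array weights Chrnb2 was at -0.019, Chrm3 at -0.0062 and the transducers at 0.020. When the filter was raised to the 50th percentile, the median was -0.013 for acetylcholine metabolism and -0.024 for modulators. Without CKO 1, Chrnb2 was at -0.0030, Chrm3 at -0.033 and Peg12 at -0.011. Without CKO 4, Peg12 was at -0.021 and the transducers at 0.027; without CKO 34 the transducers were at 0.0029, and without WT 27 at 0.0072. Without WT 6 the modulators were at -0.011. Without WT 38, Chrnb2 was at -0.034, Chrm3 at -0.017, Mkrn3 at -0.073, Otud7a at 0.0064 and the transducers at 0.028. The other ends of the ranges over left-out arrays were 0.050 for Chrnb2, 0.184 for Chrm3, 0.143 for Mkrn3, 0.078 for Peg12, -0.053 for Otud7a and 0.040 for the modulators. The cause of these changes was not tested. Chrna5, Chrm2 and Chrm4 fall out at the 50th percentile and have no value there.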

Other observations

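Ngfr, the p75 neurotrophin receptor known as a marker of basal forebrain cholinergic neurons and also made by other cells of the developing cortex, had 9.70, 9.67, 9.64 and 9.71 on CKO 1, CKO 4, CKO 34 and CKO 43, against 9.73, 10.03 and 9.96 on WT 6, WT 27 and WT 38. All CKO arrays lay below all WT arrays, and the difference was -0.23 (SE 0.068, limma adjusted p 0.711). Without overlap, 2.99% of all genes lay lower in CKO. The other 4 tested genes of the basal forebrain list, Chat, Slc18a3, Lhx8 and Gbx1, had positive differences, where 58.9% of all genes did. The list's mean centred signal ran from -0.067 to 0.138 on CKO arrays and from -0.063 to 0.0074 on WT arrays, so these groups overlapped.

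Genes below the filter were not tested. Chrna6, the alpha6 subunit, averaged 5.94 ± 0.023 over the CKO arrays (SD, n = 4) and 5.98 ± 0.070 over the WT arrays (SD, n = 3). Chrna10, the alpha10 subunit, averaged 6.73 ± 0.177 over the CKO arrays (SD, n = 4) and 6.61 ± 0.063 over the WT arrays (SD, n = 3). Chrnd, the delta subunit of the muscle receptor, averaged 6.76 ± 0.046 over the CKO arrays (SD, n = 4) and 6.59 ± 0.072 over the WT arrays (SD, n = 3), with each CKO array above each WT array. Slc5a7, the high-affinity choline transporter, averaged 6.80 ± 0.140 over the CKO arrays (SD, n = 4) and 6.73 ± 0.052 over the WT arrays (SD, n = 3).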
